A study of Mus musculus with 8 samples.

Results

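The genes of the T cell receptor complex, its CD4 coreceptor, the kinase Lck and the costimulatory receptor CD28 were followed in Th17-polarized and Th22-polarized mouse CD4 T cells with and without Gpr65. The set was given by name and held 10 genes, Cd3d, Cd3e, Cd3g, Cd247, Trac, Trbc1, Trbc2, Cd4, Lck and Cd28. All 10 were among the 16649 gene symbols of the deposited matrix, and all 10 were among the 13412 genes that passed the filter on low counts. Their rule was a list of names with no threshold on a measured value, and the list was drawn up with earlier results of these data known.

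The antigen receptor of a helper T cell is a pair of variable chains, alpha and beta, that bind peptide on MHC class II, and a set of invariant CD3 and zeta chains that carry the signal inward. CD4 binds MHC class II beside the receptor and brings the kinase Lck, which phosphorylates the CD3 and zeta tails, and CD28 adds the costimulatory signal. The chains reach the cell surface as an assembled complex, and its surface level falls after strong stimulation.

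Cells came from the spleens of female mice aged 10 weeks. They were CD4+ T cells, polarized in vitro and harvested at day 3, and each of the 4 groups had 2 libraries. The genotypes were Gpr65 wild type (WT) and Gpr65 knockout (KO), a loss of the proton-sensing receptor Gpr65, and the strain is labelled only GPR65 for all mice. Th17 cultures received 20 ng/ml IL-1b, 25 ng/ml IL-6 and 20 ng/ml IL-23. Th22 cultures received 20 ng/ml IL-1b, 40 ng/ml IL-6, 20 ng/ml IL-23 and 400 nM FICZ, which activates the aryl hydrocarbon receptor, so the effects of FICZ and of the higher IL-6 dose cannot be told apart. The sources used here do not give how the allele was made or how the T cell receptor was stimulated in culture. The labels do not say whether the 2 libraries of a group came from separate animals or cultures, so p-values cover no more than library-to-library spread, and that may be technical.

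The libraries held 9969 to 15119 kept cells and 33826527 to 58895019 unique molecular identifiers (UMIs, each standing for a captured mRNA molecule), with medians of 2354 to 4142 UMIs per cell. Of 100483 distinct cell barcodes, 1199 occurred in more than 1 library. Levels are given as CPM, the UMIs of a gene summed over the cells of a library and scaled to a common library total. Gpr65 was at 50.6 to 72.9 CPM in the 4 WT libraries and at 0.887 to 1.58 CPM in the 4 KO libraries, so all 8 libraries matched their genotype label. The 5 CD4 T cell markers Cd4, Cd3d, Cd3e, Cd3g and Trac summed to 1829 to 2831 CPM per library. CD8 T cell markers summed to 10.2 to 14.0 CPM, gamma-delta T cell markers to 16.4 to 36.4, natural killer markers to 6.50 to 17.1, B cell markers to 28.6 to 49.4, myeloid markers to 21.2 to 33.1 and stromal and endothelial markers to 8.83 to 17.6. Some of these moved with the groups, as given beside the results for Cd3g and Cd4.

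The genes lie at a few loci of the GRCm38 build. Cd3g (ENSMUSG00000002033, chr9:44969572-44980431, minus strand), Cd3d (ENSMUSG00000032094, chr9:44981786-44987339, plus strand) and Cd3e (ENSMUSG00000032093, chr9:44998740-45009627, minus strand) share a stretch of 40056 bases. The starts of Cd3d and Cd3g are 1355 bases apart and point away from each other. Trbc1 (ENSMUSG00000076490, chr6:41538218-41539881) and Trbc2 (ENSMUSG00000076498, chr6:41546730-41548352) lie on the plus strand with 6849 bases between them, and Cd4 (ENSMUSG00000023274) is on the same chromosome at 124864692 to 124888221 on the minus strand. Cd247 (ENSMUSG00000005763), Trac (ENSMUSG00000076928), Lck (ENSMUSG00000000409) and Cd28 (ENSMUSG00000026012) lie on chromosomes 1, 14, 4 and 1. The files do not say whether counting used the strand. Cd3e overlaps the antisense gene Gm48719, and Cd247 overlaps Pou2f1 and Gm37469 on the opposite strand and Gm16565 on its own, and reads from such partners were not separated here.

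The RefSeq promoters (GRCm38.p6) of the neighbouring CD3 genes are shown because Cd3d and Cd3g were the genes of the set that passed the test between Th22 and Th17. Each runs from 250 bases before to 50 bases after the annotated start, 5′ to 3′ on the gene's strand, with AGGAAG (the ETS core) in capitals on either strand, so that its complement reads CTTCCT.
Cd3d (chr9:44981536-44981835, plus strand): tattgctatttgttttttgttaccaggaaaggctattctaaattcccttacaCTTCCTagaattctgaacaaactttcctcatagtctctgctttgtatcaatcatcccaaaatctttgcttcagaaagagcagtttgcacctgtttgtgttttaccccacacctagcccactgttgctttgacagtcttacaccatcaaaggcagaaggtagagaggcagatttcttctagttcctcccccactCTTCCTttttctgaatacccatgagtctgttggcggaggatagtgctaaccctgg
Cd3g (chr9:44980382-44980681, minus strand): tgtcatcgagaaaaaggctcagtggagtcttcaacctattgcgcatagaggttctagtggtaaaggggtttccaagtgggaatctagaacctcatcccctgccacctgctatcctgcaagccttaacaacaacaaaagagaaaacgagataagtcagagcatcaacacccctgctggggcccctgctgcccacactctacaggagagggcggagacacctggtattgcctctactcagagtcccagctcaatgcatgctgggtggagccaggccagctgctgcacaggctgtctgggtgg
Cd3e (chr9:45009562-45009861, minus strand): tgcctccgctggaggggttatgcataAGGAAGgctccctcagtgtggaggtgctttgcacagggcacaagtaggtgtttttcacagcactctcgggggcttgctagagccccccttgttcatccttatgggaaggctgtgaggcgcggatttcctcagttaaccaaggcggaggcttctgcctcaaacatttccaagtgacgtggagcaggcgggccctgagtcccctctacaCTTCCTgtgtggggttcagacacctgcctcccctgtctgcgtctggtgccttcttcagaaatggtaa

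ETS factors are abundant regulators in T cells. With position 0 as the first transcribed base, the ETS core began at -198 and -5 in the Cd3d window and at -224 and -17 in the Cd3e window, and it had 0 matches in the Cd3g window. It occurred in 35.4% of all 32851 RefSeq promoters of this length. The core that the aryl hydrocarbon receptor binds, GCGTG on either strand, had 0 matches in these windows and in those of Cd247 and Lck, against 32.4% of all promoters. The STAT motif TTCNNNGAA had 1 match in these 3 windows, in Cd3d, where it overlaps the ETS core at -198, against 8.3% of all promoters. E-box letters, CANNTG, occurred 4 times in the Cd3g window, 2 times in that of Cd3e and 1 time in that of Cd3d, and 72.3% of all promoters held them. A match is a run of letters and not a bound site.

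Th22 cultures had more transcript of the CD3 chains delta and gamma than Th17 cultures. A gene passed when its adjusted p was under 0.05. Over both genotypes, Cd3g was higher by 44.0% (log2 fold change 0.53 ± 0.08 SE) and Cd3d by 30.6% (0.39 ± 0.08). The beta chain constant gene Trbc2 was higher by 29.2% and did not pass (edgeR adjusted p = 0.0696), while Cd4 and Lck stood at -1.36% and 0.326%. In all, 2 of the 10 genes passed, both higher, against 1.94% of the 13412 genes tested, or 1.01% for genes called higher. The median log2 fold change of the 10 genes was 0.26, against 0.00 over all genes tested.

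**Figure D1:**
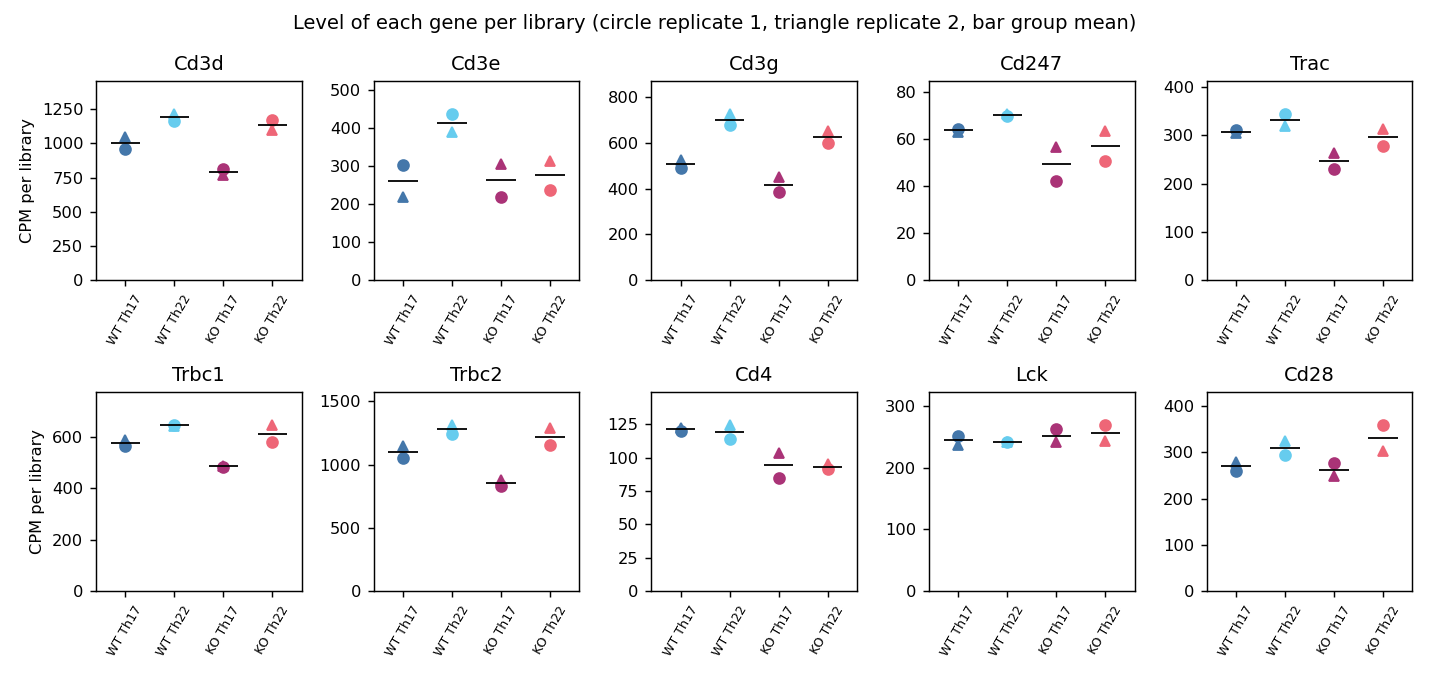
CPM of each of the 10 genes in every library (y axis, from 0) by group (x axis), with circles for replicate 1, triangles for replicate 2 and bars for the group mean. Cd3d, Cd3g, Trbc2 and Cd28 have all 4 Th22 libraries above all 4 Th17 libraries, and Cd4 has all 4 KO libraries below all 4 WT libraries.

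Cd3g encodes CD3 gamma, which pairs with CD3 epsilon in the complex. Its level was 490 and 523 CPM in the WT Th17 libraries, 676 and 725 in WT Th22, 387 and 449 in KO Th17 and 599 and 654 in KO Th22. All 4 Th22 libraries were above all 4 Th17 libraries, and the difference passed over both genotypes (edgeR adjusted p = 0.0123). The log2 fold change was 0.47 ± 0.10 in WT (edgeR adjusted p = 0.197) and 0.58 ± 0.10 in KO (edgeR adjusted p = 0.115). Neither within-genotype value passed with 2 libraries a side. The 2 CD8 T cell markers summed to 10.2 to 11.1 CPM over the 4 Th22 libraries and to 11.6 to 14.0 over the 4 Th17 libraries, without overlap. The 2 went opposite ways from Th17 to Th22. Mean Cd8b1 went from 10.7 to 8.93 CPM in WT and from 12.4 to 10.1 in KO. Mean Cd8a went from 1.01 to 1.30 CPM in WT and from 0.681 to 1.56 in KO. Their part in the differences between cultures was not tested. The Cd3g call over both genotypes was lost without WT Th17 replicate 1 (edgeR adjusted p = 0.0729) or WT Th22 replicate 2 (edgeR adjusted p = 0.0774).

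Cd3d encodes CD3 delta, the other partner of CD3 epsilon. Its level was 957 and 1045 CPM in WT Th17, 1167 and 1213 in WT Th22, 811 and 769 in KO Th17 and 1173 and 1095 in KO Th22. The Th22 libraries were again all above the Th17 libraries, with the lowest values in KO Th17. The call (edgeR adjusted p = 0.0474) lay close to the threshold and was lost without any 1 of the 8 libraries, with edgeR adjusted p between 0.0555 and 0.177 and log2 fold changes between 0.34 and 0.44. Within KO the log2 fold change was 0.52 ± 0.08 (edgeR adjusted p = 0.0967) and within WT it was 0.25 ± 0.08 (edgeR adjusted p = 0.438).

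Depth per cell was higher in both KO Th22 libraries than in both KO Th17 libraries, and it overlapped between the WT cultures. Median UMIs per cell were 2430 and 2354 in KO Th17 against 4142 and 3669.5 in KO Th22, and 2489 and 3847 in WT Th17 against 2627 and 3679 in WT Th22. When each library's median UMIs entered the model as a covariate, the log2 fold change of Cd3g was 0.48 ± 0.08 (edgeR adjusted p = 0.0568) and that of Cd3d 0.29 ± 0.07 (edgeR adjusted p = 0.118). With every cell thinned to 1500 UMIs they were 0.54 ± 0.08 (edgeR adjusted p = 0.0119) and 0.41 ± 0.09 (edgeR adjusted p = 0.0541). Without the 8% of cells with the most UMIs, Cd3g was at 0.53 ± 0.08 (edgeR adjusted p = 0.0138). Cd3d was then at 0.38 ± 0.08 and its call was lost (edgeR adjusted p = 0.0502). The part of depth in these differences was not tested beyond these fits.

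Cd3e encodes CD3 epsilon, which every CD3 dimer of the complex holds. Its level was 302 and 218 CPM in WT Th17, 437 and 391 in WT Th22, 219 and 306 in KO Th17 and 238 and 314 in KO Th22. Relative to the group mean, the libraries of a group differed by more than for Cd3d and Cd3g. The Th22 and Th17 libraries overlapped in KO and not in WT. The log2 fold change was 0.67 ± 0.22 in WT and 0.07 ± 0.22 in KO, and 0.37 ± 0.18 over both (edgeR adjusted p = 0.385). The difference between these 2 effects was -0.60 ± 0.31 and did not pass (edgeR unadjusted p = 0.0884).

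Cd247 encodes the zeta chain, which recruits the kinase Zap70 once phosphorylated. Its level was 64.3 and 62.9 CPM in WT Th17, 69.6 and 70.4 in WT Th22, 42.0 and 56.4 in KO Th17 and 50.6 and 63.2 in KO Th22. Groups overlapped in KO, and the log2 fold change over both genotypes was 0.17 ± 0.11 (edgeR adjusted p = 0.521).

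Of the antigen-binding chains, Trbc2 was at 1053 and 1143 CPM in WT Th17, 1245 and 1313 in WT Th22, 828 and 875 in KO Th17 and 1153 and 1287 in KO Th22. Its Th22 libraries were all above its Th17 libraries. Its log2 fold change was 0.37 ± 0.08, with 0.22 ± 0.09 in WT and 0.52 ± 0.09 in KO. Trbc1, the other beta chain constant gene, was at 567 and 590.0 CPM in WT Th17, 648 and 644 in WT Th22, 485 and 488 in KO Th17 and 579.8 and 646 in KO Th22. Its log2 fold change was 0.25 ± 0.07 (edgeR adjusted p = 0.131). Trac, the alpha chain constant gene, was at 311 and 304 CPM in WT Th17, 344 and 320 in WT Th22, 230 and 264 in KO Th17 and 279 and 313 in KO Th22, with a log2 fold change of 0.19 ± 0.08 (edgeR adjusted p = 0.298). Trac and Trbc1 were above in Th22 within each genotype and overlapped once the genotypes were joined.

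Neither the coreceptor gene nor the kinase gene passed in this comparison. Cd4 had a log2 fold change of -0.02 ± 0.08 and Lck of 0.00 ± 0.06 between Th22 and Th17. Lck, at 237 to 269 CPM over the 8 libraries, overlapped in every comparison of cultures. Cd28 was at 259 and 279.6 CPM in WT Th17, 294 and 325 in WT Th22, 277 and 248 in KO Th17 and 359 and 304 in KO Th22. Its 4 Th22 libraries were all above its 4 Th17 libraries, with a log2 fold change of 0.27 ± 0.08 (edgeR adjusted p = 0.163). In all, 4 of the 10 genes (Cd3d, Cd3g, Trbc2 and Cd28) had no overlap between Th22 and Th17 with Th22 higher, against 3.46% of all genes tested. Within WT 8 genes had no overlap in that direction, against 23.9% of all genes, and within KO 6, against 17.9%. Within WT 0 of the 10 genes passed (0.149% of all genes) and within KO 0 (0.119%) by edgeR, with 4 and 6 of them at an unadjusted p under 0.05, against 8.82% and 10.8% of all genes. DESeq2 called Cd3g within WT and Cd3d, Cd3g and Trbc2 within KO.

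The Th17 and Th22 libraries of the same genotype and replicate number deviated together from their group means in both genotypes. The labels do not say what a number stands for, and with 2 libraries a group this rests on 2 correlations, so the pairing is a hint from the data and not a stated part of the design. Between KO and WT groups the correlation of libraries with the same number was -0.55 to -0.45. These values turn positive if a genotype's numbers are swapped, and are then not far below the 0.641 within WT. Deviating together is thus not particular to the pairs used here. With the 4 such pairs as a block, 6 of the 10 genes passed and all 6 were higher in Th22, against 11.9% of all genes tested and 5.83% called higher. The blocked edgeR adjusted p was 0.000524 for Cd3g, 0.0107 for Cd3d, 0.0125 for Cd28, 0.0158 for Trbc2, 0.0390 for Trbc1 and 0.0434 for Cd247. It was 0.0591 for Trac and 0.154 for Cd3e. Log2 fold changes under the block were 0.53 ± 0.06 for Cd3g, 0.39 ± 0.08 for Cd3d and 0.37 ± 0.08 for Trbc2. Cd4 (-0.02 ± 0.05) and Lck (0.00 ± 0.05) did not pass with the block.

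**Figure D2:**
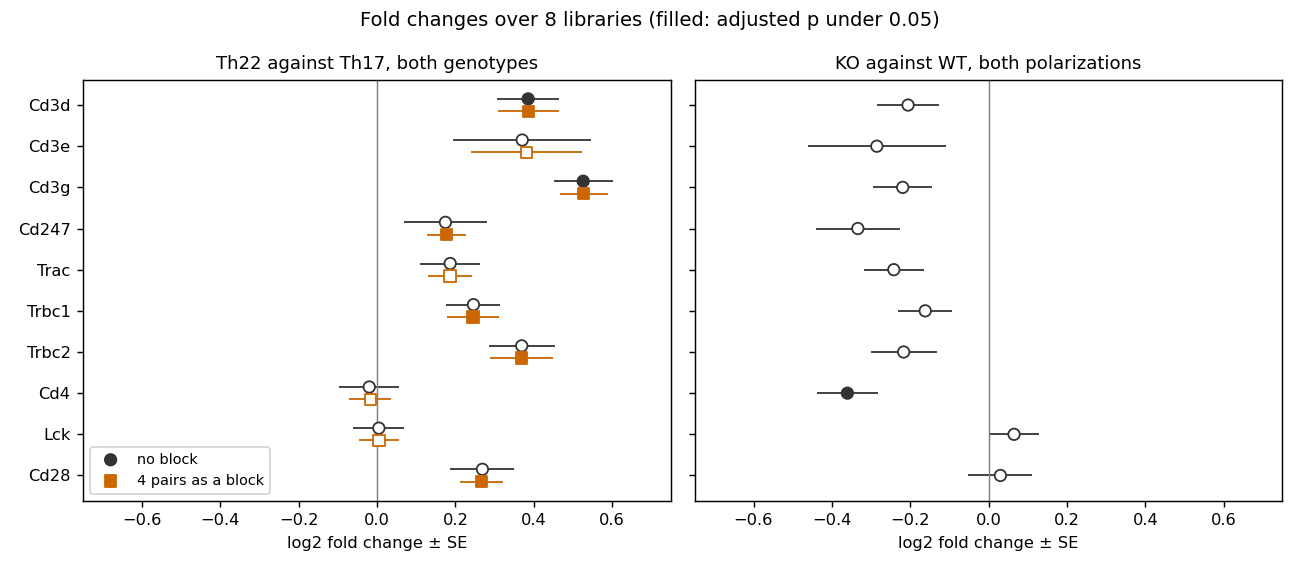
Log2 fold changes with standard errors (x axis) of the 10 genes (y axis) over the 8 libraries, Th22 against Th17 on the left and KO against WT on the right. Filled symbols have an edgeR adjusted p under 0.05: without a block Cd3d and Cd3g for Th22 (circles) and Cd4 for KO, and with the 4 pairs as a block (orange squares) 6 genes for Th22.

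The series was set up to compare WT with KO, and in that comparison Cd4 was the gene of the set that passed. Over both polarizations it was lower in KO by a log2 fold change of -0.36 ± 0.08, a change of -22.1% (edgeR adjusted p = 0.0441). Cd4 was 1 of 10 genes, against 2.93% of all genes tested and 1.52% called lower. The fit takes the 8 libraries as separate. If the Th17 and Th22 libraries of a genotype and number are linked, its p-values between genotypes are too small. With such libraries summed, 2 against 2, 6 genes passed in place of 393, and Cd4 was not among them. The CD3 and receptor chains had values from -0.33 (Cd247) to -0.16 (Trbc1) and did not pass, while Lck (0.06 ± 0.06) and Cd28 (0.03 ± 0.08) lay near 0. The median of the 10 genes was -0.22, against -0.00 over all genes tested.

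Cd4 was at 120 and 122 CPM in WT Th17, 114 and 124 in WT Th22, 84.9 and 103 in KO Th17 and 91.1 and 95.01 in KO Th22. All 4 KO libraries were below all 4 WT libraries, and Cd4 was the 1 gene of the set with no such overlap (5.13% of all genes tested had none with KO lower). The size was alike in both cultures, with -0.36 ± 0.11 in Th17 (edgeR adjusted p = 0.275) and -0.36 ± 0.11 in Th22 (edgeR adjusted p = 0.310). The interaction was 0.01 ± 0.16 (edgeR unadjusted p = 0.960).

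The Cd4 call rested on all but 1 library. It was lost without any of the 8 other than KO Th17 replicate 2, with edgeR adjusted p between 0.0597 and 0.182, and the log2 fold change stayed between -0.42 and -0.31 over the 8 omissions. It was also lost with cells thinned to 1500 UMIs (-0.36 ± 0.08, edgeR adjusted p = 0.0657) and with the libraries of a genotype and number summed, 2 against 2 (-0.35 ± 0.11, edgeR adjusted p = 0.480). With depth as a covariate it was -0.36 ± 0.08 (edgeR adjusted p = 0.0469).

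Gamma-delta T cells mostly lack CD4. The deposited cluster 7 was the highest in Trdc, the constant gene of the delta chain. It made up 3.30% and 1.78% of cells in KO Th17, 3.16% and 1.88% in KO Th22, 1.59% and 2.20% in WT Th17 and 1.75% and 2.54% in WT Th22. Both KO replicate 1 libraries were the highest, and the genotypes overlapped. The 6 B cell markers summed to 28.6 to 34.1 CPM over the 4 KO libraries and to 35.9 to 49.4 over the 4 WT libraries. Of the 4 stromal and endothelial markers, 2 were in the matrix, and these summed to 8.83 to 14.1 and to 15.9 to 17.6. Both sums were lower in KO without overlap, and no marker that was in the matrix was at 0 in every library. Their part in the Cd4 difference was not tested. Without cluster 7 the log2 fold change of Cd4 was -0.36 ± 0.08 (edgeR adjusted p = 0.0436).

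The share of cells with a Cd4 UMI was also lower in every KO library. With every cell thinned to 1500 UMIs, which left out 8642 shallower cells and kept 93046, Cd4 was seen in 16.7% and 17.2% of WT Th17 cells, 15.1% and 16.9% of WT Th22 cells, 12.3% and 14.5% of KO Th17 cells and 12.3% and 12.1% of KO Th22 cells. All 4 KO libraries were below all 4 WT libraries. Exact 95% intervals (Clopper-Pearson, for counting error alone) were 11.5 to 12.6% for the lowest library and 16.4 to 17.9% for the highest. In cluster 7, where 40.0% of cells at the same depth had a Trdc UMI, the share with a Cd4 UMI was 5.10%. Without thinning the shares over libraries ran from 21.1% to 38.1%, at medians of 2354 to 4142 UMIs, and overlapped between genotypes. A cell without a Cd4 UMI is not a cell without CD4, since the sorted population is CD4+ by its label and most cells had 0 Cd4 UMIs at this depth.

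The CD3 and receptor chains were lower by sign in KO in both cultures, except Cd3e in Th17 (0.01 ± 0.22), and none passed within a culture. Of the 10 genes, 7 lay below WT without overlap in Th17, against 21.7% of all genes tested, and 5 in Th22, against 21.8%. In Th22 Lck lay above WT without overlap, in a direction that 20.4% of all genes shared. Cd3d had a log2 fold change of -0.34 ± 0.08 in Th17 (edgeR adjusted p = 0.192) and -0.07 ± 0.08 in Th22 (edgeR adjusted p = 0.793). Trbc2 had -0.37 ± 0.09 (edgeR adjusted p = 0.192) and -0.07 ± 0.09 (edgeR adjusted p = 0.808). By edgeR 0 genes passed within Th17 (0.186% of all genes) and 0 within Th22 (0.149%), with 6 and 2 of the 10 at an unadjusted p under 0.05, against 12.2% and 11.7% of all genes. The 2 of 10 in Th22 lay near that share. DESeq2 called 0 of the 10 in either culture.

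Whether the genotype effect differed between the cultures was tested by the interaction, and 0 of 13412 genes passed (0%) by edgeR, with 566 (4.22%) at an unadjusted p under 0.05, while DESeq2 called 12 genes and none of this set. Within the set the smallest unadjusted p values were 0.0481 for Trbc2 (0.30 ± 0.13) and 0.0525 for Cd3d (0.27 ± 0.12). The 2 comparisons of genotype within a culture and the 2 of culture within a genotype share libraries.

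Within the 12 deposited clusters, Cd3g passed in more clusters than the other genes of the set between Th22 and Th17. Of 120 combinations of gene and cluster, 101 were higher by sign and 16 passed, all 16 higher. The 12 clusters share the 8 libraries, so the combinations are not separate observations. The share higher by sign over all genes was not counted. Cd3g passed in 7 clusters (0, 1, 2, 3, 6, 7 and 8), Trbc2 in 4 (1, 2, 6 and 8), Cd3d in 3 (1, 2 and 8), and Trbc1 and Cd28 in 1 each (cluster 2). By edgeR Cd3e, Cd247, Trac, Cd4 and Lck passed in 0 of 12. The share of all genes called in these clusters was 0.701% in cluster 0, 3.07% in 1, 2.26% in 2, 0.572% in 3, 0.434% in 6, 0.481% in 7 and 1.69% in 8. In the clusters without a call it was 0.396% in cluster 4, 0.255% in 5, 0.364% in 9, 0.141% in 10 and 0.0682% in 11.

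Cd3g had its highest value in cluster 8, at 0.73 ± 0.12 (edgeR adjusted p = 0.000433), and was at 0.60 ± 0.10 in cluster 7 (edgeR adjusted p = 0.000291) and 0.61 ± 0.08 in cluster 2 (edgeR adjusted p = 0.000917). Cd28 had 0.54 ± 0.08 in cluster 2 (edgeR adjusted p = 0.00102). The combinations that passed without each of the 8 libraries in turn were Cd3g in clusters 1, 2, 7 and 8, Cd3d and Trbc2 in cluster 8 and Cd28 in cluster 2. The count of 16 fell to 11 without KO Th17 replicate 1 and to 8 without WT Th17 replicate 1 or WT Th22 replicate 2. Cd4 was higher by sign in 4 clusters and lower in 8, and passed in 0 of 12 by edgeR.

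Between genotypes the same sums gave 20 of 120 combinations higher in KO by sign and 6 that passed, all lower in KO. These were Cd4 and Cd3d in cluster 1 and Cd4, Cd3d, Cd3g and Trac in cluster 2, where 7.43% and 2.4% of all genes were called. In the other clusters that share was 1.23% (0), 0.429% (3), 0.818% (4), 0.21% (5), 0.38% (6), 0.247% (7), 0.381% (8), 0.227% (9), 0.198% (10) and 0.273% (11). Cd4 was lower by sign in 12 of 12 clusters, with log2 fold changes from -0.52 to -0.16. It was -0.32 ± 0.08 in cluster 1 (edgeR adjusted p = 0.0230) and -0.41 ± 0.10 in cluster 2 (edgeR adjusted p = 0.0393). Cd3g in cluster 2 was at -0.45 ± 0.08 (edgeR adjusted p = 0.00913). The count of 6 was 1 without KO Th17 replicate 1 or WT Th17 replicate 1, 2 without WT Th22 replicate 1, 3 without WT Th17 replicate 2 and 0 without WT Th22 replicate 2, and it was 11 without KO Th22 replicate 2. Lck was higher by sign in 11 of 12 clusters and passed in 0 by edgeR. The 12 clusters share the 8 libraries, so these signs and calls are not separate observations. These fits also take the 8 libraries as separate, so their p-values are too small if libraries of a genotype and number are linked.

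**Figure D3:**
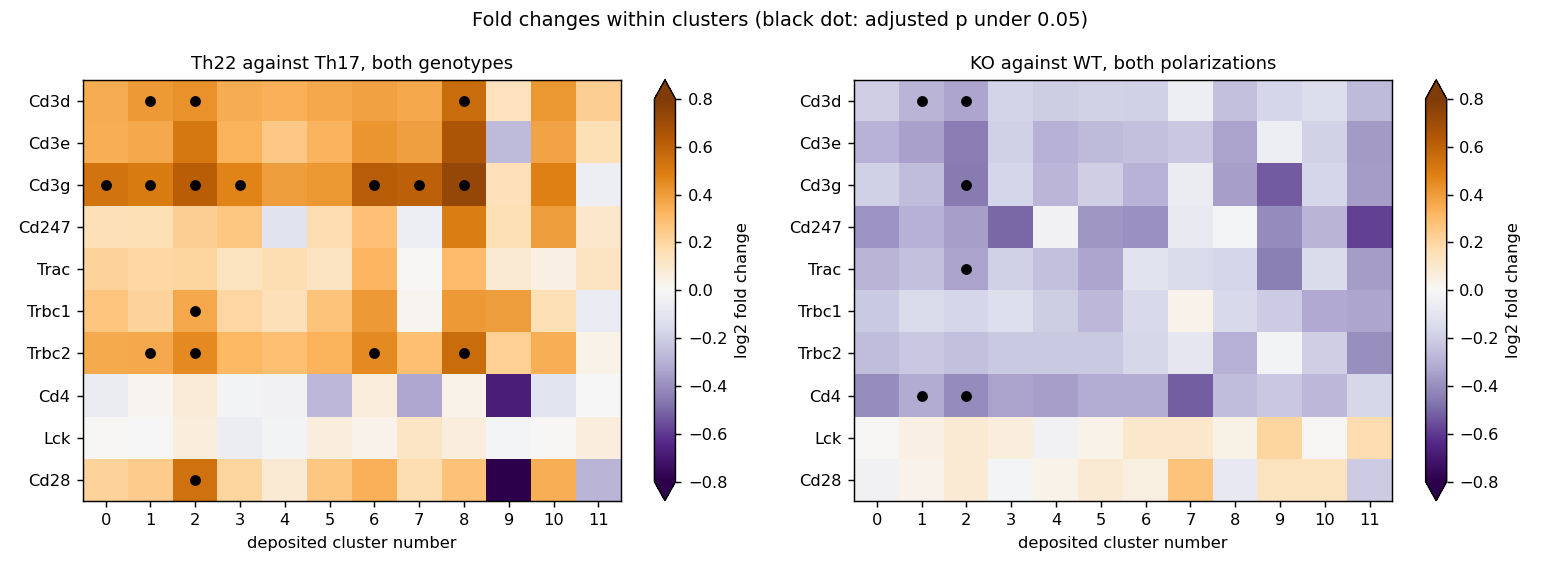
Log2 fold changes (colour, limited to 0.8 either way) of the 10 genes (rows) within each deposited cluster (columns), Th22 against Th17 on the left and KO against WT on the right, with a black dot where the edgeR adjusted p is under 0.05. Dots stand for 16 combinations on the left, led by Cd3g in 7 clusters, and for 6 on the right, in clusters 1 and 2.

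The levels of the genes in the clusters are a description, since the clusters were made from these cells. Cd4 ran from 39.5 ± 10.7 CPM in cluster 7 (SD over 8 libraries) and 55.2 ± 20.6 in cluster 9 to 122 ± 17.9 in cluster 6. Cd3g ran from 233 ± 59.9 CPM in cluster 11 and 292 ± 82.3 in cluster 9 to 954 ± 197 in cluster 7. Cd28 ran from 146 ± 61.1 CPM in cluster 9 to 335 ± 42.2 in cluster 0. Placed in order of mean, neighbouring clusters overlapped over the libraries in all 11 steps for 9 genes, and for Cd28 the step from cluster 4 (245 ± 23.9) down to cluster 11 (157 ± 41.2) had no overlap. Cluster 9 held 667 cells with a median of 1912 UMIs and cluster 11 held 539 cells.

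**Figure D4:**
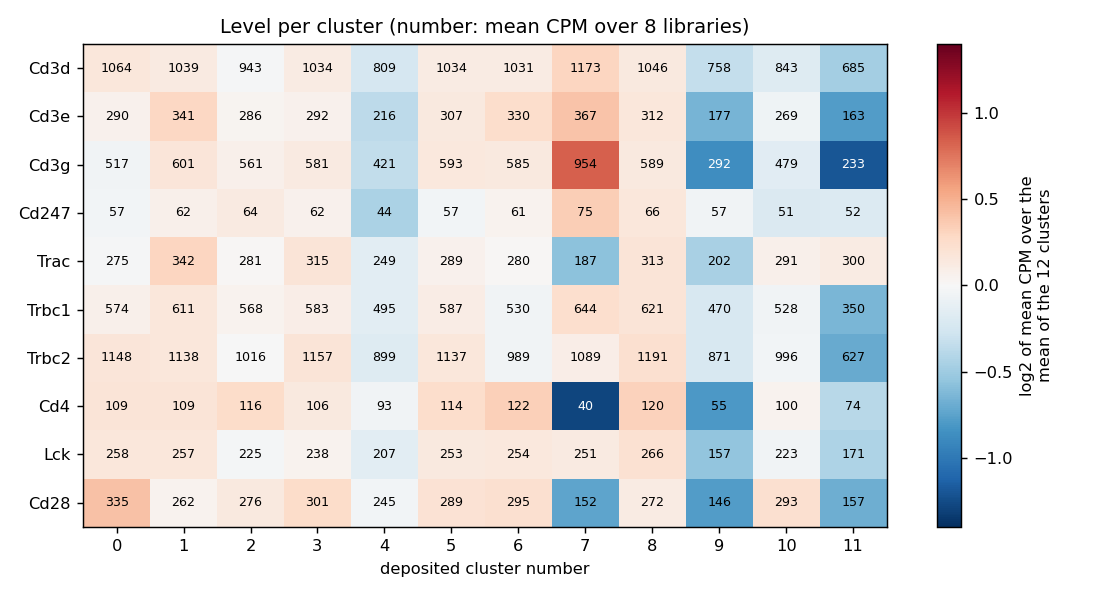
Mean CPM over the 8 libraries (printed number) of each of the 10 genes (rows) in each deposited cluster (columns), coloured by the log2 ratio to the gene's mean over the 12 clusters. Cluster 7 is lowest for Cd4 and highest for Cd3g, and clusters 9 and 11 are low for most genes.

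Cluster 7 had less Cd4, Cd28 and Trac and more Cd3g, Cd3e and Cd3d than the rest of the cells of each library. Trdc was seen in 40.0% of its 2136 thinned cells (exact 95% interval 37.9 to 42.1%) against 0.0903% to 1.02% in the other 11 clusters. Within the 8 libraries its Cd4 level was 0.254 to 0.465 times that of the other cells (median 0.367), its Cd28 level 0.375 to 0.640 times and its Trac level 0.538 to 0.724 times, below in 8 of 8 libraries for each. Cd3g was 1.60 to 2.09 times that of the other cells, Cd3e 1.15 to 1.32 times and Cd3d 1.04 to 1.23 times, above in 8 of 8. Trbc2 had a median ratio of 0.997 and Lck of 0.993, with libraries on both sides.

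A Cd4 UMI was seen in 5.10% of thinned cluster 7 cells (exact 95% interval 4.21 to 6.12%), in 6.40% of cluster 9 cells and in 11.5% to 16.3% in the other 10 clusters. Before thinning, the median depth was 3320 UMIs in cluster 7 and 2648 in cluster 0, the largest. Over all 93046 thinned cells, 121 had a Cd8a UMI and 10 of these had a Cd4 UMI too. Cluster 7 held 69 of the 121. Its mean Cd8a was 26.3 ± 14.8 CPM (SD over 8 libraries), and the highest elsewhere was 5.45 ± 9.67, in cluster 10. Within cluster 7 a Cd4 UMI was seen in 4.45% of cells with a Trdc UMI and in 5.54% of those without. Over all clusters, 1037 cells had a Trdc UMI. Of these 6.85% had a Cd4 UMI, against 14.6% of the others, and 84.9% had a Cd3d UMI, against 78.3% of the others. Free RNA in the droplets adds UMIs to cells that do not express a gene, and its part in these shares was not tested.

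Each beta chain allele joins its variable segments to either Trbc1 or Trbc2, whose proteins are nearly the same. Over 518 coding bases the GENCODE M21 sequences of the 2 genes differed at 23 and were 95.6% identical, with a longest shared run of 259 bases, so reads over that run cannot be assigned to either gene. The last 200 bases of the transcripts, where a 3′ library would read, shared 0 of 151 stretches of 50 bases. Which end of the transcripts these libraries read is not given here. Coding bases 459 to 518 are shown because they hold 11 of the 23 differences, in capitals.
Trbc1: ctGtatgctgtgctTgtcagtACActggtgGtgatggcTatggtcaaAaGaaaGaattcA
Trbc2: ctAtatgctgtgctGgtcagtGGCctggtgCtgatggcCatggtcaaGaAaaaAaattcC

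Trbc1 made up between 32.9% and 36.9% of the beta chain UMIs of a library. Its share of Trbc1 plus Trbc2 UMIs was 35.0% and 34.1% in WT Th17, 34.2% and 32.9% in WT Th22, 36.9% and 35.8% in KO Th17 and 33.5% and 33.4% in KO Th22. KO Th17 was highest in both libraries, and the Th17 and Th22 libraries overlapped in WT and not in KO. Of the 4 pairs of one genotype and number, Th22 was below Th17 in 4. Th22 minus Th17 was -1.94 percentage points (exact two-sided permutation test within genotype, p = 0.111, Benjamini-Hochberg adjusted over 2 tests 0.222). KO minus WT was 0.867 points (exact two-sided permutation test within polarization, p = 0.222, adjusted 0.222). The 36 arrangements allow no p under 0.0556.

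In single cells the UMIs of the 2 genes did not exclude each other. Among thinned cells, 78.0% of those with a Trbc1 UMI had a Trbc2 UMI, and so did 76.7% of those without. Among 18487 cells with 5000 UMIs or more, 8941 had at least 10 beta chain UMIs, and the Trbc1 fraction was under 0.1 in 16.8% of these, over 0.9 in 0.805% and between in 82.4%, with a median of 0.364. The part of free RNA, of cells that share a droplet and of reads that cannot be assigned in this mix was not tested.

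**Figure D5:**
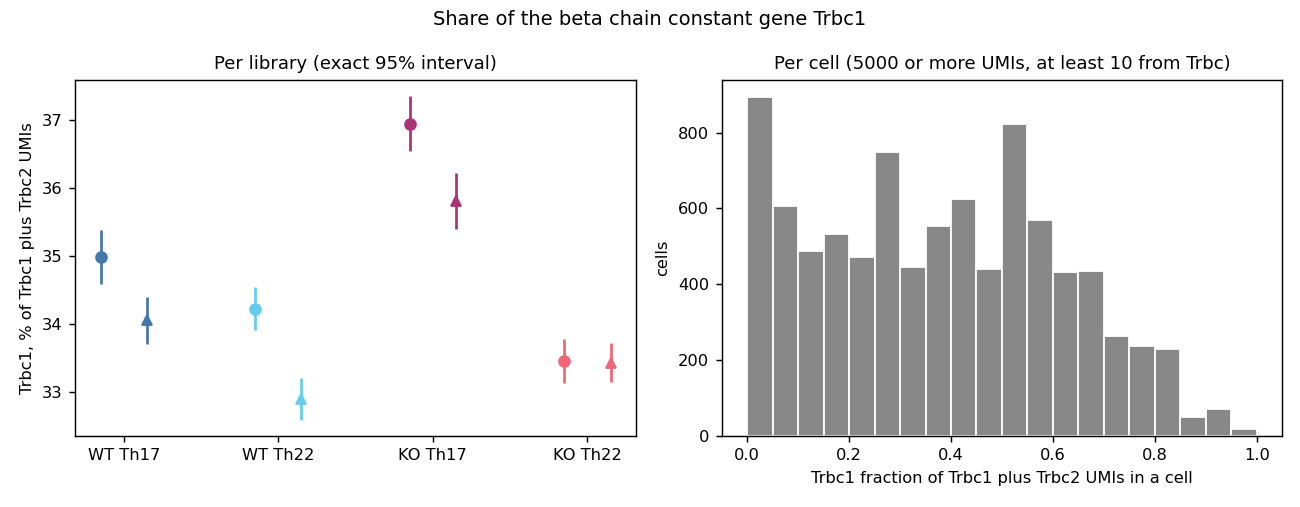
Left, Trbc1 as a percentage of Trbc1 plus Trbc2 UMIs per library (y axis, which does not start at 0), with exact 95% intervals of counting error, circles for replicate 1 and triangles for replicate 2. Right, the number of cells (y axis) by their Trbc1 fraction (x axis) among 8941 cells with at least 10 beta chain UMIs, spread over the whole axis with 16.8% under 0.1 and 0.805% over 0.9.

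Other genes of the pathway were counted from lists chosen by role. Of 23 kinases, adaptors and other proteins that act in receptor signalling, 1 was higher and 1 lower in Th22 over both genotypes. Of all genes tested, 1.94% were called in either direction. Skap1, an adaptor that links the receptor to integrins, had a mean of 292 ± 17.2 CPM for Th22 against 233 ± 12.3 for Th17 (SD, n = 4 each), and its log2 fold change was 0.33 ± 0.06 (edgeR adjusted p = 0.0401). Trat1, a transmembrane adaptor that binds the receptor complex, was lower at -0.50 ± 0.10 (edgeR adjusted p = 0.0474). The Tec family kinase gene Txk had 0.30 ± 0.07 (edgeR adjusted p = 0.0938). The median of the list was 0.02. With the 4 pairs as a block 2 were called higher and 7 lower, against 11.9% of all genes in either direction.

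Between genotypes the same list had 1 called higher and 1 lower in KO, against 2.93% of all genes in either direction. Trat1 had a mean of 15.7 ± 3.27 CPM in KO libraries against 6.27 ± 1.41 for WT (SD, n = 4 each). Its log2 fold change was 1.33 ± 0.10 (edgeR adjusted p = 0.000576). The call held without each of the 8 libraries in turn and was lost with libraries summed, 2 against 2 (edgeR adjusted p = 0.141). Txk was lower in KO, at 32.6 ± 3.96 CPM against 44.3 ± 6.03, by a log2 fold change of -0.44 ± 0.07 (edgeR adjusted p = 0.0200). Lat, the scaffold of the receptor signal, had 0.39 ± 0.09 (edgeR adjusted p = 0.0581). All 4 KO libraries were above all 4 WT libraries for Trat1 and Lat, and below them for Txk.

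Of 19 brakes on receptor signalling, edgeR called 0 between Th22 and Th17, with 3 at an unadjusted p under 0.05 (14.5% of all genes were). With the 4 pairs as a block 1 was higher and 3 lower, against 11.9% of all genes in either direction. Without the block Sla2 had 0.20 ± 0.08, the ubiquitin ligase gene Cblb -0.41 ± 0.15 and the phosphatase gene Ptpn22 -0.26 ± 0.10. In KO 2 of the 19 were lower, against 1.52% of all genes called lower. These were the diacylglycerol kinase gene Dgka at -0.41 ± 0.08 (edgeR adjusted p = 0.0341) and the adaptor gene Sla at -0.34 ± 0.07 (edgeR adjusted p = 0.0411). Cd5, whose level follows the strength of receptor signals in the thymus, had 0.31 ± 0.08 (edgeR adjusted p = 0.0689), with a mean of 445 ± 54.9 CPM for KO against 357 ± 5.98 for WT (SD, n = 4 each).

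Of 16 genes that receptor signalling induces, 1 was lower in Th22, the nuclear receptor gene Nr4a3, at 2.15 ± 0.481 CPM against 4.58 ± 0.836 (SD, n = 4 each), by a log2 fold change of -1.08 ± 0.20 (edgeR adjusted p = 0.0291). Of all genes tested, 1.94% were called in either direction. The median of the list was -0.22. With the 4 pairs as a block 1 was higher and 5 lower, against 11.9% of all genes in either direction. Nr4a2 had -0.59 ± 0.17 and the early activation marker gene Cd69 0.26 ± 0.07, and neither passed without the block. In KO 0 of the 16 passed by edgeR, with 4 at an unadjusted p under 0.05 (19.4% of all genes were), among them Cd69 at 0.25 ± 0.07, Nr4a1 at -0.47 ± 0.16 and Rcan1 at 0.29 ± 0.10.

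Of 14 transcription factors of T cell identity and of the choice between CD4 and CD8, 2 were lower in Th22 over both genotypes. In that comparison 1.94% of all genes were called in either direction. In KO 5 of the 14 were lower, against 1.52% of all genes called lower. The 2 in Th22 were Gata3 at -0.61 ± 0.11 (edgeR adjusted p = 0.0305) and Myb at -1.14 ± 0.21 (edgeR adjusted p = 0.0325). Ikzf1 had -0.24 ± 0.09 and did not pass without the block. With the 4 pairs as a block 1 was higher and 5 lower, against 11.9% of all genes in either direction. In KO, Tcf7 had a mean of 106 ± 19.6 CPM against 155 ± 10.4 for WT (SD, n = 4 each), and its log2 fold change was -0.56 ± 0.10 (edgeR adjusted p = 0.0203). Runx3, a repressor of Cd4 in CD8 T cells, was lower by -0.43 ± 0.08 (edgeR adjusted p = 0.0242) and Lef1 by -0.37 ± 0.08 (edgeR adjusted p = 0.0394). The remaining 2 of the 5, named after their values were seen, were Ets1 (-0.45 ± 0.10, edgeR adjusted p = 0.0483) and Satb1 (-0.41 ± 0.09, edgeR adjusted p = 0.0421). The list had 3 of 14 genes higher by sign in KO and a median of -0.13.

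These calls differed in how far they rested on single libraries. The Skap1 call was lost without any 1 of the 8 libraries (edgeR adjusted p up to 0.178). The calls of Trat1 and Gata3 in Th22 were kept without KO Th22 replicate 1 and without KO Th17 replicate 1 respectively, and lost without any other library (up to 0.182 and 0.151). Nr4a3 kept its call without KO Th17 replicate 1 or either KO Th22 library, and Myb without KO Th17 replicate 2 or KO Th22 replicate 1 (edgeR adjusted p up to 0.145 and 0.162 elsewhere). In KO against WT, Sla and Lef1 kept theirs without KO Th22 replicate 1 alone, and Dgka and Runx3 without either KO Th22 library. Txk kept its call without KO Th17 replicate 2 or either KO Th22 library, and Tcf7 without KO Th17 replicate 2, KO Th22 replicate 1 or WT Th22 replicate 1. Over these 6 genes the edgeR adjusted p reached 0.164 for Sla at most. With the libraries of a genotype and number summed, 2 against 2, the edgeR adjusted p was 0.407 for Txk, 0.447 for Dgka, 0.512 for Sla, 0.312 for Tcf7, 0.382 for Runx3 and 0.438 for Lef1, and all 6 calls were lost.

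Over the 96 sums of a library and a cluster, the genes outside the set whose log2 CPM went most closely with Cd4 among 6390 ranked genes were Btla (Pearson r = 0.763), Satb1 (0.741), Il6ra (0.723), Pou2f2 (0.721) and Arap2 (0.715). Within the set Cd28 had r = 0.733 and Trac 0.717 with Cd4, while Cd3g had 0.138 and Lck 0.371, so Cd28 ranked above Il6ra and Trac above Arap2. For the summed level of Cd3d, Cd3e and Cd3g the closest outside the set were Gpr146 (r = 0.819), Fxyd5 (0.805), Emb (0.786), Itm2b (0.782) and Ly6e (0.766), and within the set Trbc2 had 0.851, above Gpr146, Trbc1 0.780 and Trac 0.237. The 96 points share 8 libraries and 12 clusters, so these values describe a pattern over clusters and libraries and carry no test.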

How the data were processed

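The authors deposited UMI counts per gene and cell for all 8 libraries in a single matrix, with a table that gives each cell's library, cluster number, percent of mitochondrial UMIs and phase scores. The deposited counts are not normalized, and the deposited scores were not used. Per the submitters' processing notes, Cell Ranger 5.0.1, Seurat and the build mm10 were used. The sources used here do not give how cells were filtered or clustered.

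Cells with at least 500 genes and at most 10% mitochondrial UMIs by the deposited percent were kept, 101688 of 104660. Counts were summed per library, or per library and cluster, and edgeR 4.0.16 (R 4.3.3) ran its quasi-likelihood test on the sums, with TMM normalization, filterByExpr and Benjamini-Hochberg adjustment over all genes at 0.05. From the deposited counts, CPM was calculated with the TMM library sizes. Comparisons over both genotypes or both polarizations used an additive model of all 8 libraries, and the others 1 mean per group. DESeq2 1.42.0 was an alternative. On simulated counts the edgeR test recovered 81.0% of 63 genes changed 1.5-fold for Th22 against Th17 and 70.8% of 72 for KO against WT. It also called 16 and 7 unchanged genes. The simulated libraries were drawn independently, so these values do not cover libraries linked by genotype and number. Over both genotypes or both polarizations the changes in the set were smaller, at most 1.44-fold (Cd3g, Th22 against Th17). No doublet caller was run. Leaving out the 8% of cells with the most UMIs was a rough substitute, since a deep cell need not be a doublet. Shares of cells were taken after thinning to 1500 UMIs.

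Positions come from GENCODE M21 by symbol. RefSeq promoters were found for 5 of the 10 genes. The text names all 10 genes, up to 3 genes of each pathway list with the smallest adjusted p, and the 5 genes outside the set closest in pattern to Cd4 and to the summed CD3 genes (mean of at least 10 CPM). The genes of the set and the lists were chosen with earlier results of these data known.

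The Th17 and Th22 libraries of the same genotype and number deviated together from their group means over 6339 genes (correlation 0.878 in KO and 0.641 in WT, 4 pairs), and the pairs were also fitted as a block. With 2 libraries a group these are 2 separate values, and the labels give only the numbers, so the pairing is a hint from the data.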

Additional observations from a re-analysis of the deposited data

How the results depend on the processing

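Counts of called genes depended on the fit more than fold changes did. Th22 against Th17 over both genotypes gave 260 genes, 553 with DESeq2, 1592 with the replicate block of 4 pairs, 171 with cells thinned to 1500 UMIs, 91 with median UMIs per cell as a covariate and 54 to 247 without each replicate. Within WT the 20 genes became 146 with DESeq2, 38 with no filter on low counts, 226 with the 4 libraries alone and 0 to 28 without each replicate. Within KO the 16 became 181, 32, 0 and 6 to 12 under the same changes, 29 thinned and 2 with the covariate. KO against WT over both polarizations gave 393, 942 with DESeq2, 6 with libraries summed 2 against 2, 197 thinned and 50 to 541 without each replicate. In Th17 the 25 became 206 with DESeq2, 42 unfiltered, 16 with 4 libraries, 6 with the covariate and 3 to 54 without each replicate. In Th22 the 20 became 143, 4 with 4 libraries, 11 thinned, 11 without the 8% of cells with the most UMIs, 5 with the covariate and 1 to 14 without each replicate. The interaction gave 0 genes, and 12 with DESeq2. Gene and cluster combinations numbered 8 to 19 for Th22 against Th17 and 0 to 11 for KO against WT without each replicate, and for the latter 10 unfiltered.

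With the replicate number as a block over both genotypes, Th22 against Th17 gave 198 genes and KO against WT 289, with Cd3d at edgeR adjusted p = 0.0831 and Cd4 at 0.0429. The block gave 6 genes in WT and 7 in KO for Th22 against Th17, and 9 in Th17 and 6 in Th22 for KO against WT. For KO against WT the numbers did not pair the libraries (correlation -0.50 in Th17 and -0.55 in Th22). The crossed replicate block, added after the data were seen, gave 1568 genes over both cultures, 665 in Th17 and 488 in Th22.

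Signs that turned belonged to values near 0. Without each replicate, Th22 against Th17 ran from -0.074 to 0.039 for Cd4 and -0.028 to 0.030 for Lck over both genotypes, -0.090 to 0.036 for Cd4 and -0.061 to 0.026 for Lck in WT, and -0.15 to 0.33 for Cd3e, -0.15 to 0.13 for Cd4 and -0.045 to 0.098 for Lck in KO. KO against WT ran from -0.030 to 0.075 for Cd28 over both cultures, -0.25 to 0.27 for Cd3e, -0.019 to 0.10 for Lck and -0.12 to 0.039 for Cd28 in Th17, and -0.15 to 0.0073 for Trbc1, -0.14 to 0.015 for Trbc2 and -0.021 to 0.22 for Cd28 in Th22. Thinned, Cd4 in KO was at 0.0044 for Th22 against Th17, and in Th17 KO against WT was -0.0075 for Cd3e and -0.0036 for Lck. With the covariate KO against WT was -0.22 for Cd3e and 0.065 for Cd28 in Th17 and -0.0015 for Cd28 in Th22. The causes of these shifts were not tested. With 2 libraries a group the test has 4 or 5 residual degrees of freedom, which limits what can pass.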
